A study of Mus musculus with 18 samples.

Results

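The Cyp3a genes encode cytochrome P450 enzymes of the liver and gut, and 8 of them, Cyp3a11, Cyp3a13, Cyp3a16, Cyp3a25, Cyp3a41a, Cyp3a41b, Cyp3a44 and Cyp3a59, were followed here by gene symbol. They are 8 of the 52230 genes with a summed estimated count in the deposited liver libraries. The libraries came from 18 mice of the GCKR-P446L-EMI-B6N knock-in strain, in which GKRP, the regulatory protein of glucokinase, carries either its proline (PP, the wild-type form) or a leucine (LL, on both alleles). There were 4 PP and 4 LL males and 5 PP and 5 LL females, all on standard rodent diet, and a number after a group name is the mouse number of the labels. The labels give ages of 9 to 14 weeks, from 9 to 14 in male PP, 13 to 14 in male LL, 9 to 14 in female PP and 11 to 14 in female LL mice, while the design text of the series gives 14 weeks for all. The 3 mice of 9 weeks, male PP 1, female PP 1 and female PP 2, were all PP, so genotype and age are partly confounded.

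CYP3A enzymes sit in the endoplasmic reticulum and oxidise a wide range of drugs, steroids and bile acids with electrons from P450 oxidoreductase. Their genes are targets of the xenobiotic receptors PXR (Nr1i2) and CAR (Nr1i3), and in mouse liver the family holds members that are known to follow the sex-specific pattern of growth hormone release through STAT5. Cyp3a11 is the main drug-inducible Cyp3a of adult mouse liver, Cyp3a16 is known as a form of the newborn liver, and Cyp3a41 and Cyp3a44 are known as forms of the adult female liver.

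All 8 genes lie on chromosome 5 of the GRCm39 build. Cyp3a13 (137891193 to 137919882, minus strand) stands 7.45 Mb from the others, which form a cluster of 677 kb in the order Cyp3a16 (145373119 to 145406533), Cyp3a41b (145495474 to 145521540), Cyp3a41a (145630859 to 145656946), Cyp3a44 (145710793 to 145742686), Cyp3a11 (145791236 to 145816867), Cyp3a25 (145913516 to 145946432) and Cyp3a59 (146016067 to 146050097). Cyp3a59 is on the plus strand and the others are on the minus strand.

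How far reads can tell the members apart decides which values can be read singly. Cyp3a41a and Cyp3a41b are near copies. Their coding sequences of 1512 bases each differ at 2 bases, G120A and G336T (base of Cyp3a41a, position counted from the A of the start codon, base of Cyp3a41b), and their translations do not differ. The 31 coding bases around each difference are shown because they are where the coding sequences of the copies can be told apart, with the differing base in capitals and the sequence written along the coding strand of GRCm39.
Cyp3a41a (chr5:145654765-145654795): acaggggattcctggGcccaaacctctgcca
Cyp3a41b (chr5:145519355-145519385): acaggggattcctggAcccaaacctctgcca
Cyp3a41a (chr5:145645936-145645966): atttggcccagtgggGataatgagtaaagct
Cyp3a41b (chr5:145510522-145510552): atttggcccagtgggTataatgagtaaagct
Of the 2030 different 31-base words in the Cyp3a41a transcript, 99.9% also occurred in other genes, 96.1% in Cyp3a41b, and 3 were its own. Cyp3a41b had 84 words of its own. The split of counts between this pair is therefore uncertain, and the sum was used as an alternative. Cyp3a25 and Cyp3a59, with 97.48% identical coding sequences, had 45.8% and 49.9% of their words in other genes. The share was 48.3% for Cyp3a44, 27.3% for Cyp3a16, 15.4% for Cyp3a11 and 0.2% for Cyp3a13, so Cyp3a13 shared least. All words were taken from GENCODE M39 sequences, which can differ from the earlier transcripts that the reads were assigned to. The share of Cyp3a11 is over 5152 words of its transcripts there, among them a retained-intron form with hardly any counts. This share would be higher over the coding transcript alone.

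The 200 bases before the RefSeq start sites of 4 members are given to show how alike these near copies are before their starts. Cyp3a41a and Cyp3a44 were the tested members that differed between the sexes, and Cyp3a25 and Cyp3a59 were the closest pair among those that did not pass that test. The sequences are from RefSeq (GRCm38.p6) and were placed on GRCm39 by exact match, at chr5:145656947-145657146 and chr5:145742685-145742884 on the minus strand for the first pair and at chr5:145946429-145946628 (minus) and chr5:146015868-146016067 (plus) for the second. Capitals mark matches to the hormone receptor letters AGGTCA and AGTTCA and to TATAAA on either strand.
Cyp3a41a: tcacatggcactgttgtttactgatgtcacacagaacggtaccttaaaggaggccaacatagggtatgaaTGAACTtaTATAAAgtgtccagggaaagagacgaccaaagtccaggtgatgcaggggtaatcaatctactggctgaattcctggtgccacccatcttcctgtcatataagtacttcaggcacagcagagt
Cyp3a44: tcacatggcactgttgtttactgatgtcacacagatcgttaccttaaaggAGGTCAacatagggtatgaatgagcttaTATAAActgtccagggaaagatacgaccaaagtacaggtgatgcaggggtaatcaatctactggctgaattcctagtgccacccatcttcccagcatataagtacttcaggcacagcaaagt
Cyp3a25: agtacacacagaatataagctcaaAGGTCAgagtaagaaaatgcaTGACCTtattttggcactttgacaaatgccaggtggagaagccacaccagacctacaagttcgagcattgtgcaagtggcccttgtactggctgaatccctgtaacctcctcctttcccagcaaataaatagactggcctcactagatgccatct
Cyp3a59: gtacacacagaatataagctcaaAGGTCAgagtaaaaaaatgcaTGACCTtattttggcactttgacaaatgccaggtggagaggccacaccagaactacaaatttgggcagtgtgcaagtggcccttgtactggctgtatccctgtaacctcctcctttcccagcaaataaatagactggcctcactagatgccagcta
Over these bases Cyp3a41a was 99.5% identical to Cyp3a41b, 94.0% to Cyp3a44 and 93.4% to Cyp3a16, but 73.0% to Cyp3a25. Among the 12 differences between Cyp3a41a and Cyp3a44, counted from 1 at the 5′ end of the 200 bases, C54T gives Cyp3a44 an AGGTCA and A74G removes the match of Cyp3a41a to AGTTCA, which lies on the other strand. Cyp3a25 and Cyp3a59 were 95.5% identical, and both hold AGGTCA followed by TGACCT, the same letters on the opposite strand. The STAT5 letters TTCNNNGAA were found in none of the 8 upstream sequences. Among the same 200 bases of 27025 RefSeq promoters, AGGTCA occurred in 11.2%, AGTTCA in 9.3%, TATAAA in 10.6% and TTCNNNGAA in 5.6%. A match describes letters and not a bound site. For Cyp3a11 RefSeq puts the start at 145816664 and GENCODE at 145816867, upstream of it, so its bases are not printed.

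The libraries held from 3794671 to 6613905 estimated counts each. Fragment length, taken from the effective lengths in the files, ranged from 203 to 631 bases, and in females it was mostly longer in PP (369 to 631 bases) than in LL libraries (247 to 377 bases). Gckr, the edited gene, was not called by genotype (log2 change -0.12 ± 0.15 in males and -0.05 ± 0.13 in females, SE, DESeq2 padj = 0.860 and 0.915, where padj is the adjusted P), and a codon change cannot be read from counts. The tissue label was checked with 7 hepatocyte markers, all tested, whose summed normalized count was at least 466329 in every library. Of the 8 Cyp3a genes 6 had at least 10 counts in at least 4 libraries and were tested, as were 10938 genes in all. Cyp3a16 and Cyp3a41b had too few counts.

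Levels of different genes were compared per length, in TPM, a unit of abundance corrected for transcript length. Cyp3a11 led the family in 17 of the 18 mice, with 452 ± 271 TPM (SD, n = 4) in PP and 792 ± 255 (n = 4) in LL males, and 695 ± 520 (n = 5) in PP and 920 ± 356 (n = 5) in LL females. Cyp3a25, a liver form of the family, followed with group means of 187 to 261 TPM, and in male PP 1 it had 145 TPM against 74.9 for Cyp3a11. The TPM of Cyp3a25 leans on 2 short transcripts of 513 and 576 bases, so its place close to Cyp3a11 in the males, where the ranges of the genes overlapped in PP mice, is uncertain. Cyp3a13, which is expressed in gut as well as liver, had group means of 23.6 to 35.4 TPM and Cyp3a59 of 4.65 to 17.4 TPM. In males Cyp3a44, Cyp3a16, Cyp3a41a and Cyp3a41b were each at most 0.331 TPM in every mouse, and their order there is within the spread of single reads. In females Cyp3a41a ranged from 0.40 to 469 TPM and Cyp3a44 from 3.06 to 41.1 TPM, so that neither had a fixed place in the order.

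**Figure D1:**
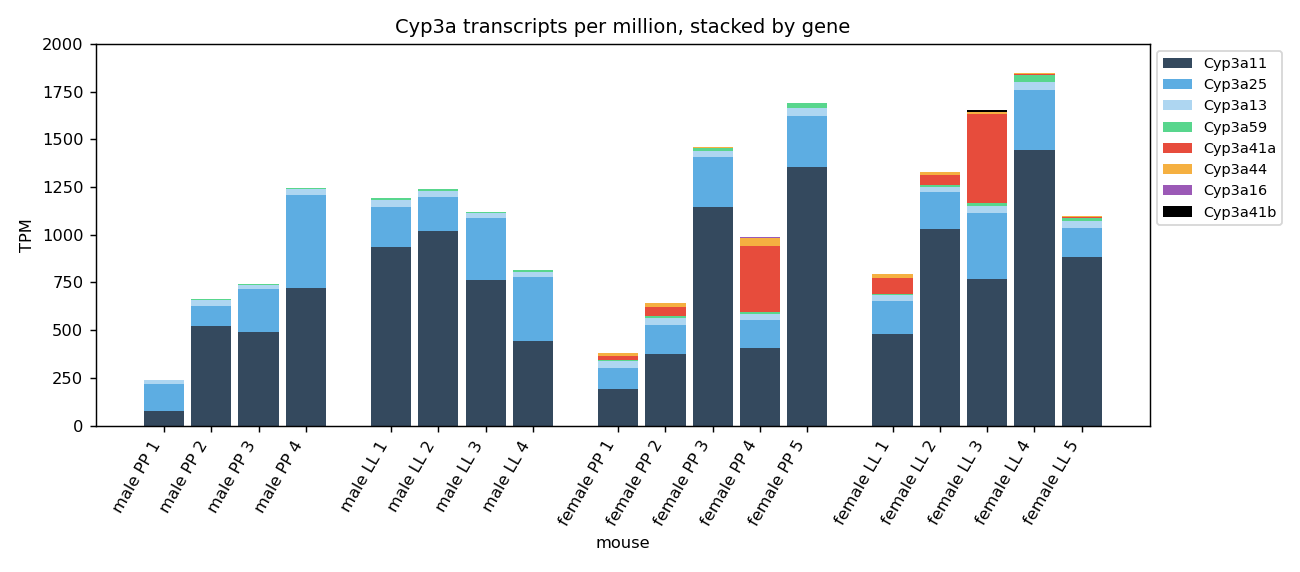
TPM of the 8 Cyp3a genes in each of the 18 mice, stacked by gene (colours) and grouped by sex and genotype along the horizontal axis. Cyp3a11 makes up most of most bars, and Cyp3a41a reaches 35.2% of the family TPM in female PP 4 and 28.4% in female LL 3.

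The sexes differed first in Cyp3a41a and Cyp3a44. Values between mice below are normalized counts, that is estimated counts summed per gene and divided by the DESeq2 size factor of the library. Cyp3a41a had 0, 1.05, 2.82 and 1.80 normalized counts in the 4 male PP mice and 0, 0, 0 and 2.16 in the 4 male LL mice. It had 253, 488, 18.5, 3638 and 4.16 in female PP mice 1 to 5. The female LL mice had 964, 585, 5472, 12.3 and 51.4. Every female was above every male of its genotype, but the females spread over 874-fold in PP and 443-fold in LL mice, and the lowest females, female PP 5 and female LL 4, stood close to the males. Females with low Cyp3a41a were found in both genotypes. The log2 change of female against male mice was 9.23 ± 1.72 in PP (SE, DESeq2 padj = 5.62e-06) and 11.30 ± 1.88 in LL mice (DESeq2 padj = 2.85e-07). The males held few counts, so the fitted sizes are loose. Of the raw sums, 4898 counts in female PP against 6 in male PP libraries give a ratio per total of 651 (exact 95% interval 299 to 1775), and 8438 counts in female LL against 2 in male LL libraries a ratio of 3525 (976 to 29116), intervals that cover counting error only. Without female PP 4 and female LL 3, the libraries with the most Cyp3a41a, the log2 changes were 7.02 and 9.49 with DESeq2 adjusted P of 0.000369 and 6.54e-06.

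Cyp3a44, the other female form, was less variable. It had 1.60, 4.20, 3.76 and 1.80 normalized counts in male PP and 2.59, 3.60, 4.46 and 0 in male LL mice. In female PP mice 1 to 5 it had 142, 229, 59.6, 406 and 31.2. In female LL mice it had 278, 203, 91.1, 64.2 and 53.6. All 10 females were above all 8 males, with a gap between 4.46 and 31.2 normalized counts. The log2 change was 5.91 ± 0.84 in PP (SE, DESeq2 padj = 2.58e-10) and 5.68 ± 0.85 in LL mice (DESeq2 padj = 4.51e-09). In all 2 of the 6 tested members were called (adjusted P under 0.05, with expression up by 1.3 times or more, or down to 0.7 times or less) in each sex comparison, both higher in females. Of all tested genes 6.45% were called in PP and 6.12% in LL mice, and 3.68% and 3.33% were called as higher in females. The ranges of the sexes did not overlap for these 2 members, nor for 9.74% of all tested genes in PP and 8.16% in LL mice. Both members had fewer than 10 counts in every male library and so passed the filter on low counts only through the females, while Cyp3a16 and Cyp3a41b did not pass it, and nothing is read from their share of the tested members.

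**Figure D2:**
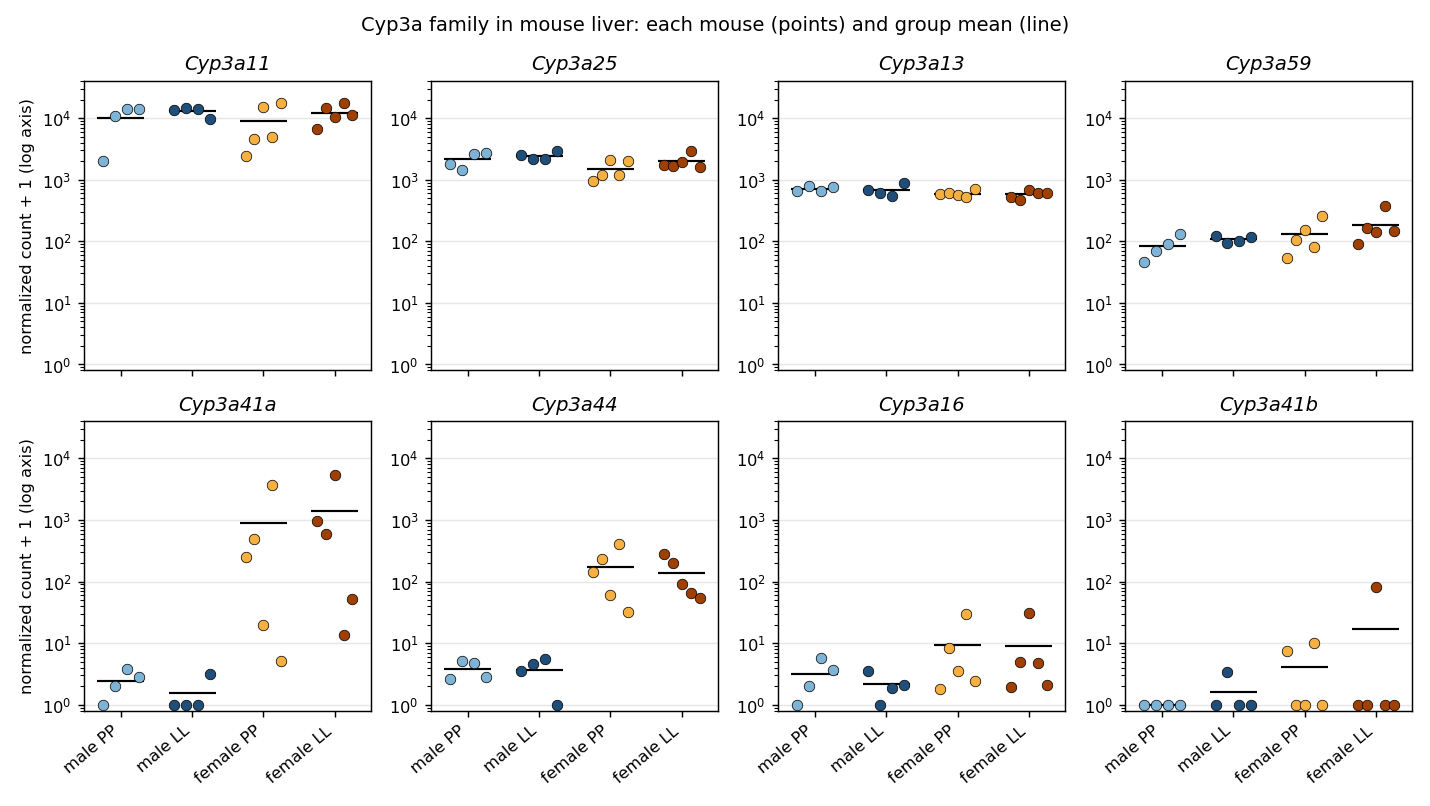
Normalized count plus 1 on a log axis for each Cyp3a gene, with 1 point per mouse and a line at the mean of each of the 4 groups. All females lie above all males of the same genotype for Cyp3a41a and Cyp3a44, and the other panels overlap between the sexes.

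The members too low to be tested were read as values. Cyp3a41b had 0 counts in all 4 male PP, in 3 of 4 male LL, in 3 of 5 female PP and in 4 of 5 female LL libraries. Its remaining values were 2.40 normalized counts in male LL 2, 6.39 in female PP 1, 9.06 in female PP 4 and 81.3 in female LL 3. The last 2 are the libraries with the most Cyp3a41a, and the reads of the 2 genes can hardly be told apart. Cyp3a16 had 0, 1.05, 4.70 and 2.70 normalized counts in male PP and 2.59, 0, 0.892 and 1.08 in male LL mice. In female PP mice it had 0.798, 7.27, 2.52, 29 and 1.39. In female LL mice it had 0.910, 3.95, 30.1, 3.70 and 1.09. Most females overlapped with the males, and the highest were again female PP 4 and female LL 3. The ratio of summed counts per total was 4.08 (exact 95% interval 1.97 to 9.47) between female and male PP mice and 9.61 (3.51 to 36.8) between female and male LL mice, for counting error only, with most female counts from those 2 mice.

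The other members did not pass the test between the sexes. Cyp3a25 was 1797, 1459, 2614 and 2742 normalized counts in male PP mice and 958, 1197, 2074, 1171 and 2038 in female PP mice, with overlap. Its log2 change of female against male was -0.53 ± 0.25 in PP (SE, unadjusted p = 0.0301, DESeq2 padj = 0.211) and -0.28 ± 0.25 in LL mice (DESeq2 padj = 0.566). Cyp3a13 had the narrowest range of the family, from 473 to 891 normalized counts over all 18 mice, with log2 changes of -0.27 ± 0.15 and -0.24 ± 0.15 (DESeq2 padj = 0.329 and 0.378). Cyp3a59, the near copy of Cyp3a25, differed in the other direction, by 0.62 ± 0.40 in PP and 0.78 ± 0.40 in LL mice (DESeq2 padj = 0.471 and 0.256). For Cyp3a11 the differences were -0.19 ± 0.57 and -0.11 ± 0.57 (DESeq2 padj = 0.928 and 0.951), and the interval of the PP difference reached from -1.3 to 0.92 on the log2 scale, which leaves room for a sizeable difference in either direction.

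The question of the study, what the LL form of GKRP changes in the liver, was then put to the family. No tested member was called by genotype. In males 0 of 6 members were called, where 0.283% of all tested genes were, and in females 0 of 6, where 0.658% were. None had an unadjusted p below 0.05 in either sex. With edgeR 0 members were called as well, but it called only 0.0274% of all tested genes in each sex, so this adds little. The ranges of LL and PP mice overlapped for all 8 members in both sexes, while they did not for 4.07% of tested genes in males and 2.66% in females. The interaction of genotype and sex called 0 of 6 members and 0.119% of all genes, with no member below 0.05 in unadjusted p. For the interaction edgeR called 0 of all tested genes, so its 0 among the members says nothing about them. Of the log2 changes of LL against PP, those of Cyp3a11, Cyp3a25 and Cyp3a59 were above 0 and those of Cyp3a13 and Cyp3a44 below 0 in both sexes, all within the spread between mice.

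Cyp3a11 had 1974, 10653, 13811 and 14066 normalized counts in male PP mice and 13728, 14734, 13822 and 9700 in male LL mice. The female PP mice had 2460, 4619, 14933, 5000 and 17355, and the female LL mice 6645, 14571, 10467, 17435 and 11133. The lowest mice were PP in either sex, and the groups overlapped. The log2 change of LL against PP was 0.36 ± 0.60 in males (SE, DESeq2 padj = 0.903) and 0.44 ± 0.53 in females (DESeq2 padj = 0.754). Without the mice of 9 weeks, a choice made after seeing the data, it was -0.04 in females and 0.02 in males. The interval of the difference with all mice was -0.81 to 1.53 in males and -0.61 to 1.49 in females.

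Cyp3a25 had the smallest p of the family by genotype. In LL mice it had 2473, 2138, 2181 and 2884 normalized counts in males and 1746, 1683, 1931, 2950 and 1619 in females. The log2 change against PP was 0.17 ± 0.26 in males (SE, DESeq2 padj = 0.895) and 0.42 ± 0.23 in females (unadjusted p = 0.0726, DESeq2 padj = 0.385). In females 4 of the 5 LL mice lay inside the PP range given above, and female LL 4 lay above it. With transcript length as an offset the male value was -0.15.

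Cyp3a59 had 44.8, 68.2, 90.2 and 131 normalized counts in male PP mice and 119, 92.3, 102 and 115 in male LL mice. It had 52.7, 105, 154, 80.6 and 252 in female PP mice and 88.3, 166, 140, 378 and 147 in female LL mice. The LL mice lay within the PP range in males, and in females 1 LL mouse lay above it. The log2 changes were 0.35 ± 0.43 and 0.51 ± 0.38 (SE, DESeq2 padj = 0.849 and 0.553). In females the coding transcript averaged 162 (PP) and 129 (LL) estimated counts, not scaled between libraries, or 12.4 and 12.5 TPM. A form annotated for nonsense-mediated decay averaged 1.88 (PP) and 46.7 (LL) estimated counts there. In males the coding transcript averaged 81.0 and 94.0 and the decay form 2.34 and 3.11. Such estimates for single transcripts are uncertain and were not tested. Cyp3a13 had 654, 804, 662 and 750 normalized counts in male PP and 684, 609, 539 and 891 in male LL mice, a log2 change of -0.08 ± 0.16 (DESeq2 padj = 0.940). In females it had 574, 599, 561, 528 and 706 in PP and 524, 473, 679, 616 and 600 in LL mice, a log2 change of -0.04 ± 0.14 (DESeq2 padj = 0.932). The intervals, -0.38 to 0.23 in males and -0.31 to 0.23 in females, were the narrowest of the family. For Cyp3a41a and Cyp3a44 in females the log2 changes by genotype were 0.69 ± 1.51 and -0.33 ± 0.67 (SE, DESeq2 padj = 0.879 and 0.866). Leaving out 1 library at a time moved the first from -1.13 without female LL 3 to 2.89 without female PP 4, so its direction rested on single mice.

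**Figure D3:**
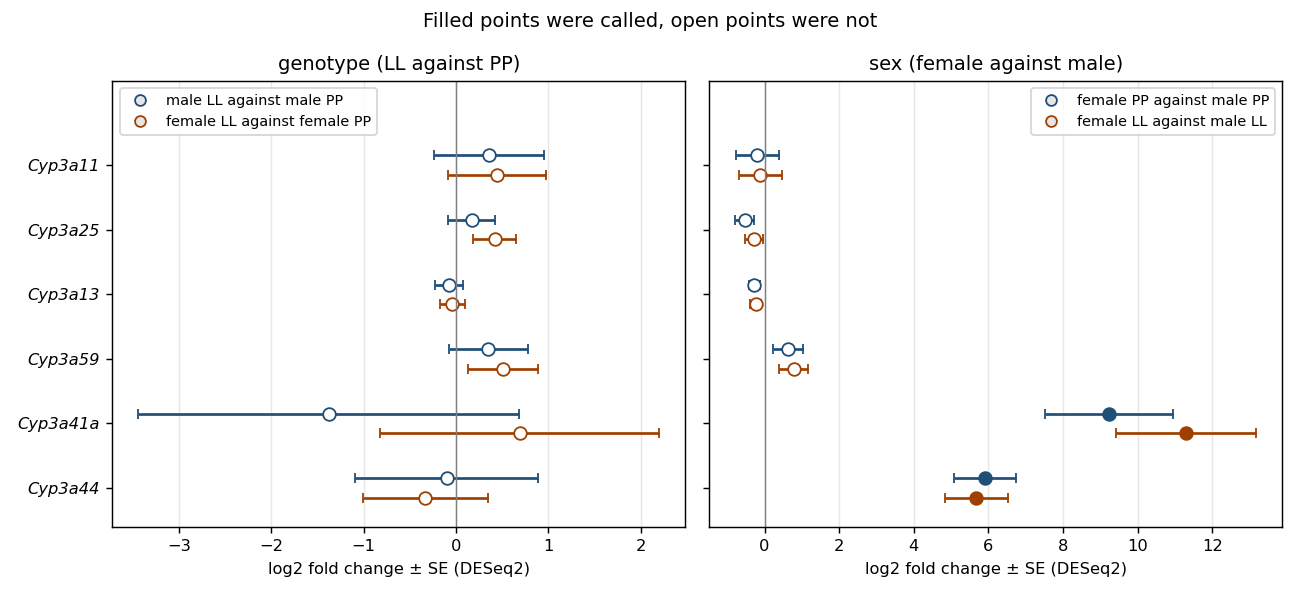
Log2 fold changes with SE from DESeq2 for the 6 tested Cyp3a genes, by genotype in each sex (left) and by sex in each genotype (right). Filled points were called, which holds for Cyp3a41a and Cyp3a44 between the sexes and for no gene between the genotypes.

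Age was tried as a term because the labels give it for each mouse. The 3 mice of 9 weeks had the 3 lowest Cyp3a11 counts of all 18, 1974, 2460 and 4619 normalized counts, next to 5000 in female PP 4 (12 weeks) and 6645 in female LL 1 (11 weeks). In the fit with the 4 groups and age, Cyp3a11 was the only member called for age, where 0.192% of all tested genes were called. It rose by 0.39 ± 0.08 on the log2 scale per week (SE, DESeq2 padj = 0.00599). Cyp3a59 had a slope of 0.28 ± 0.07 (DESeq2 padj = 0.109) and Cyp3a25 of 0.14 ± 0.05 (DESeq2 padj = 0.509). Without the mice of 9 weeks the Cyp3a11 slope was 0.10 ± 0.11 (DESeq2 padj = 0.796). Among LL mice alone, which were 11 to 14 weeks old, it was 0.03 ± 0.13 (DESeq2 padj = 1.00), and among PP mice alone 0.48 ± 0.12 (DESeq2 padj = 0.0340). The DESeq2 adjusted P was 0.234 without male PP 1, 0.362 without female PP 5 and 0.133 without female LL 1, and that of edgeR was 0.457. In these 4 fits 0.0916%, 0.0369%, 0.119% and 0.00914% of all tested genes were called. The slopes in them were 0.29 ± 0.10, 0.39 ± 0.11, 0.38 ± 0.10 and 0.39. With any 1 library left out the slope stayed between 0.29 and 0.44. The call thus depended on single libraries, and the size of the slope on the youngest mice. Other members were called in some subsets and not in others. In the subsets where they were called, 0.128% to 0.248% of all tested genes were called too. Cyp3a59 had a slope of 0.28 ± 0.07 in PP mice alone (DESeq2 padj = 0.0340), and it was also called when 1 of 4 libraries was left out, with DESeq2 padj of 0.0440 (female PP 2 left out), 0.0219 (female PP 4), 0.0448 (female LL 4) and 0.0304 (female LL 5). Cyp3a44 had a slope of -0.28 ± 0.17 with all mice (DESeq2 padj = 0.983). It was -0.52 ± 0.09 without female PP 4 (DESeq2 padj = 1.33e-05) and -0.77 ± 0.13 in LL mice alone (DESeq2 padj = 1.08e-05). In PP mice alone it was -0.05 ± 0.22 (DESeq2 padj = 0.999), and with all mice the edgeR adjusted P was 0.836. Every male library held at most 5 counts of Cyp3a44. Cyp3a59 was not called in LL mice alone (0.24 ± 0.17) or by edgeR with all mice (adjusted P = 0.532). The slope was looked at after the values were seen.

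**Figure D4:**
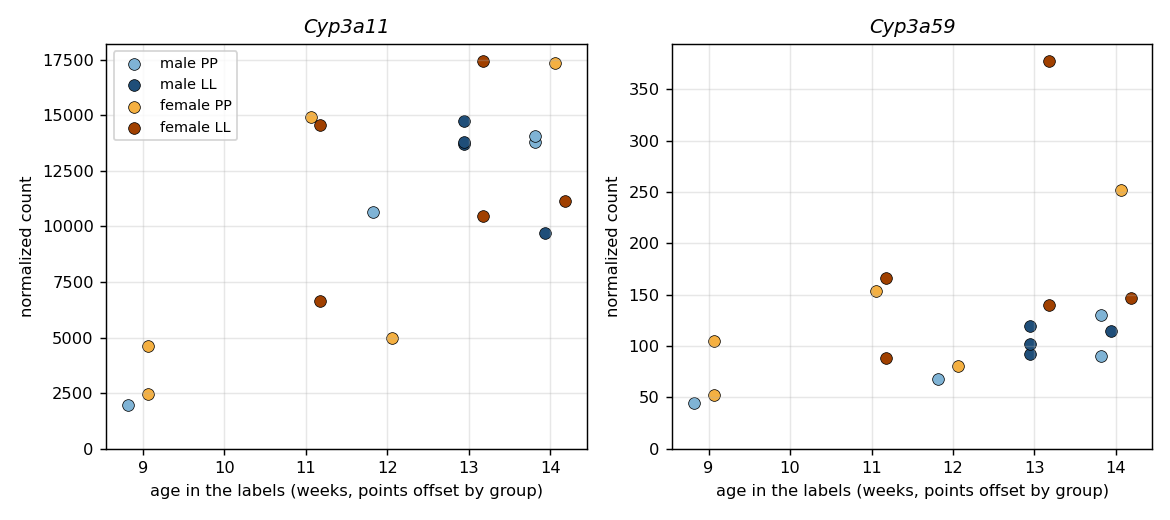
Normalized counts of Cyp3a11 (left) and Cyp3a59 (right) against the age of each mouse in weeks, with points coloured and slightly offset by group. The 3 mice of 9 weeks, all PP, have the lowest Cyp3a11 counts, and between 11 and 14 weeks the counts overlap.

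Within groups some members moved together. After the group mean of log2(normalized count + 1) was subtracted, 15 pairs of tested members were compared over the 18 mice with permutations within groups. Cyp3a11 and Cyp3a59, which share no 31-base word, had a Pearson r of 0.83 (permutation p = 5e-05, adjusted P = 0.00075) and a Spearman rho of 0.82 (permutation p = 0.00039, adjusted P = 0.00585). Without the 2 mice farthest from the median of Cyp3a11 r was 0.79, and with age also subtracted it was 0.67. Cyp3a25 and Cyp3a59, which share 41.1% and 43.5% of their words, had r of 0.84 and rho of 0.81 (permutation p = 0.00069 and 0.0016, adjusted P = 0.00517 and 0.012), and r of 0.80 without the 2 farthest mice. The part of shared reads in this value was not tested. Cyp3a13 and Cyp3a44 moved in opposite directions, with r of -0.68 and rho of -0.70 (permutation p = 0.00486 and 0.00447, adjusted P = 0.0243 and 0.0223). Without the 2 farthest mice r was -0.59. All 8 males had 0 to 4.46 normalized counts of Cyp3a44, so their deviations in this gene rest on single reads. Male LL 4 had both 0 of Cyp3a44 and the highest Cyp3a13 value, 891. The part of these male values in r was not tested. The other 12 pairs did not pass the adjustment. Among them Cyp3a41a and Cyp3a44 had r of 0.645 and rho of 0.63 (permutation p = 0.0255 and 0.032, adjusted P = 0.0638 and 0.096), and Cyp3a11 and Cyp3a41a had r of -0.42.

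**Figure D5:**
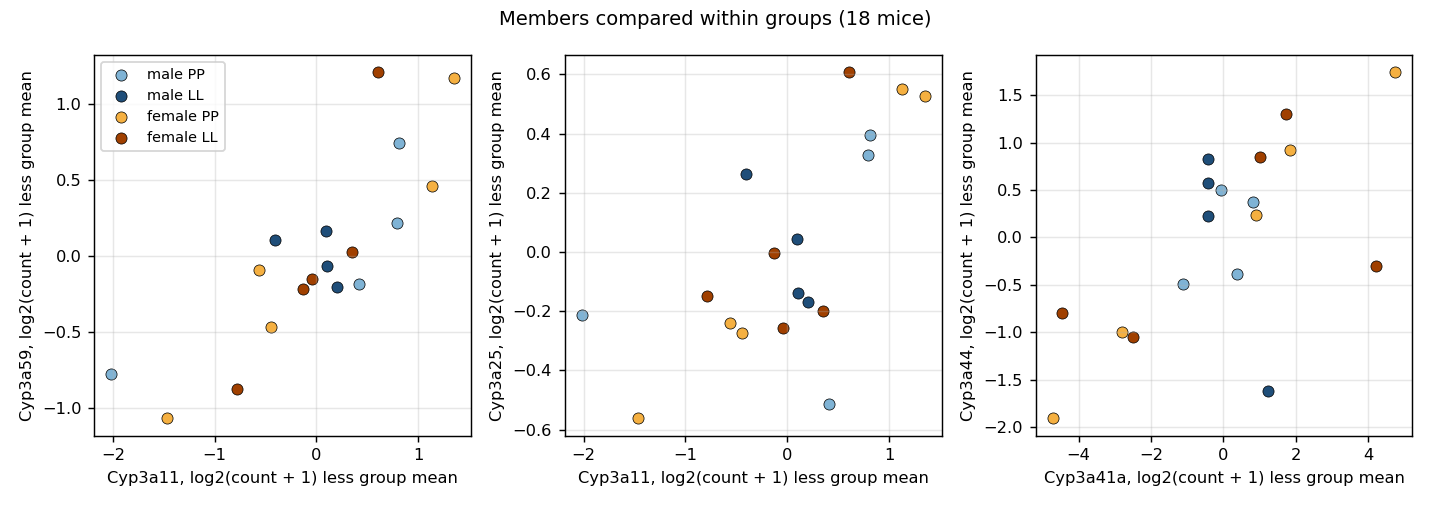
Log2(normalized count + 1) less the group mean for pairs of Cyp3a genes in 18 mice, coloured by group. Cyp3a59 rises with Cyp3a11 (r of 0.83), Cyp3a25 less tightly (r of 0.66), and Cyp3a44 rises with Cyp3a41a (r of 0.645) over a much wider range of values.

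The genes outside the family that were most like each member over the 18 libraries were named as a description. They were ranked by Pearson r of log2(normalized count + 1) over all tested genes other than the members. For Cyp3a41a they were A1bg (r of 0.91), Gm6135 (0.89) and Eci3 (0.89), and for Cyp3a44 A1bg (0.95), 9030619P08Rik (0.95) and Sult3a1 (0.94), over mice of both sexes. With group means subtracted they were Smim30, Mcu and Uchl3 for Cyp3a41a (r of 0.81, 0.78 and 0.75) and Gpi1, Septin9 and Mcu for Cyp3a44 (0.87, 0.85 and 0.84). Those of Cyp3a11 were Myo1d, Shc1 and Ssx2ip (0.82, 0.80 and 0.80), of Cyp3a25 Slc25a37, Pde3b and the carboxylesterase Ces2a (0.85, 0.85 and 0.83), of Cyp3a59 Gpd1l, Setd3 and Apc (0.84, 0.81 and 0.80) and of Cyp3a13 Rapgef2, Slc38a4 and Gm14399 (0.90, 0.81 and 0.80). Before subtraction they were Shc1, Bloc1s6 and Cnnm2 for Cyp3a11, Mpeg1, Pros1 and Slc38a4 for Cyp3a13, Slc25a37, Ell2 and Nadk2 for Cyp3a25 and Appbp2, Cnn3 and Gbp7 for Cyp3a59, with r from 0.75 to 0.88. These are the highest of many values over 18 points.

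Transcription factors that act on Cyp3a genes were described next. Of 17 listed regulators 16 were tested. None was called by genotype in either sex, where 0.283% of all tested genes were in males and 0.658% in females. The medians of the log2 changes by genotype were -0.25 in males and -0.09 in females against 0.00 and 0.01 over all tested genes. Nr1i2 (PXR) ranged from 191 to 400 normalized counts over the 18 mice and was not called in any contrast. Between the sexes 1 regulator rose and 1 fell in female PP against male PP mice, where 6.45% of all tested genes were called. Cux2, a female-specific liver repressor, averaged 62.2 ± 50.9 normalized counts in the females and 1.56 ± 1.39 in the males (log2 change 5.49 ± 0.81, DESeq2 padj = 1.23e-09). The highest male values of Cux2 were 3.2 in PP and 2.16 in LL mice, so it passed the filter on low counts only through the females. Bcl6, a male-biased repressor that competes with STAT5, had 26.2 ± 9.36 and 111 ± 74.5 (-2.09 ± 0.62, DESeq2 padj = 0.0147). In LL mice 3 rose in females and 0 fell, where 3.33% of all tested genes were called as higher in females. Cux2 had a log2 change of 5.98 ± 1.11 (DESeq2 padj = 7.6e-06), Nr1i3 (CAR) of 0.93 ± 0.23 (0.00288) and Stat5b, a transducer of the growth hormone signal, of 0.65 ± 0.21 (0.0317). Nr1i3 in PP mice had 0.21 ± 0.23 (DESeq2 padj = 0.742), and its interaction of genotype and sex was not called (0.72 ± 0.33, DESeq2 padj = 0.419).

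Electron donors, haem supply genes and partners of P450 were listed next. Of 11 listed and tested, 1 rose and 0 fell in female LL against female PP mice, where 0.658% of all tested genes were called. In the other contrasts 0 were called, and the medians of the log2 changes were from -0.00 to 0.10. The called gene was Pgrmc1, a haem-binding partner of P450 enzymes, with a mean of 5047 ± 669 in female LL against 3747 ± 425 in female PP mice (log2 change 0.43 ± 0.11, DESeq2 padj = 0.0164). Of 12 other targets of PXR or CAR, all tested, 0 were called by genotype, where 0.283% of all tested genes were in males and 0.658% in females. In PP mice 4 rose in females, where 3.68% of all tested genes were called as higher in females. These 4 were the drug efflux pump Abcb1a, Cyp2b10 (a main CAR target), the organic anion carrier Slco1a4 and the bilirubin transferase Ugt1a1. Abcb1a and Slco1a4 both had a log2 change of 2.39, and Cyp2b10 averaged 21.0 ± 15.6 normalized counts in female PP mice and was at 0 in every male PP library. In male LL mice Cyp2b10 had at most 1.08, so it passed the filter on low counts only through the females. Nothing is read from its being called. In LL mice Cyp2b10, Slco1a4 and Ugt1a1 rose in females, where 3.33% of all tested genes did. Ugt1a1 averaged 2740 ± 271 normalized counts in female PP against 1716 ± 415 in male PP mice (log2 change 0.68 ± 0.21, DESeq2 padj = 0.0212). The medians of this list were 0.48 in PP and 0.19 in LL mice between the sexes, 0.41 between the genotypes in males and 0.06 in females.

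Markers of other liver cells moved with the sex comparison in PP mice and stand beside the rise of Cyp3a41a and Cyp3a44 there. Of all tested genes 6.45% were called between the sexes in PP and 6.12% in LL mice. As higher in females 3.68% and 3.33% were called. Of 5 stellate cell and fibroblast markers 4 were tested and all 4 rose in female PP mice (Col3a1, Dcn, Lrat and Reln), with a summed normalized count of 670 to 924 against 282 to 582 in male PP mice. Of 5 endothelial markers, all tested, 2 rose (Clec4g and Kdr), with sums of 257 to 531 against 130 to 245. In LL mice 0 of these markers were called and the sums overlapped. They were 411 to 896 against 502 to 818 for stellate and 190 to 372 against 183 to 239 for endothelial markers. Among hepatocyte markers Alb rose and Serpina1c fell in female PP mice, and Apoa2 rose and Serpina1c fell in female LL mice. Alb was also called in the interaction, where 0.119% of all tested genes were. Of 3 erythroid markers, all tested, 1 fell in females of both genotypes, Alas2 (log2 change -2.73 in PP and -2.09 in LL mice), while Hba-a1 and Hbb-bs were not called, with log2 changes of -1.43 and -0.83 in PP and of 0.54 and 0.71 in LL mice. In female LL mice 1 of 6 macrophage markers (Vsig4) and 1 of 8 pericentral hepatocyte markers (Oat) rose. Of the enterocyte, cholangiocyte, lymphocyte and pancreatic acinar markers 1 each was tested and none was called. The part of these markers in the results was not tested, and in bulk tissue fewer cells of a type and less RNA per cell cannot be told apart.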

How the data were processed

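RNA from the livers of 18 mice was sequenced by the authors, who checked the reads with FastQC and assigned them to GENCODE mouse transcripts (GRCm39) with Salmon 1.4.0, per the labels and the methods of the study. Each deposited table gave estimated counts per transcript, not scaled between libraries, TPM values computed by Salmon for the authors, and the length and effective length of each transcript. Salmon splits reads that fit several transcripts, which blurs near copies. Transcripts (137570 of 139225) were joined here to the 52230 genes of GENCODE M39, a later release, and counts were summed and rounded. DESeq2 1.42.0 in R 4.3.3 (Wald test, 4 groups, 18 libraries, at least 10 counts in at least 4 libraries) gave adjusted P by Benjamini-Hochberg over 10938 genes, and edgeR 4.0.16 was an alternative. The fit was tested on simulated counts. An adjusted P that DESeq2 left empty stayed empty. Depth was 3794671 to 6613905 estimated counts per library. Members and gene lists were chosen with earlier results of these data known. All 8 members, the called genes of each list, Cyp3a and called genes within 500 kb and the 3 genes outside the family most like each member are named. Replicates are separate mice. Permutation tests used 100000 permutations and were two-sided.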

Additional observations from a re-analysis of the deposited data

Results flagged for a closer look

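In each group the highest or lowest mouse was compared with its neighbour by Dixon's ratio, for 31 groups of values of the 8 Cyp3a genes, and 9 stood apart, where chance marks about 1 in 20. Those 9 are not independent, since they come from few mice and from genes that share reads. Female PP 4 stood apart with 3638 normalized counts of Cyp3a41a and 29 of Cyp3a16. Female LL 3 stood apart with 5472 of Cyp3a41a, 30.1 of Cyp3a16 and 81.3 of Cyp3a41b. Female LL 4, which had little Cyp3a41a, stood apart with 2950 of Cyp3a25 and 378 of Cyp3a59. Male LL 4 with 2.16 of Cyp3a41a and male LL 2 with 2.40 of Cyp3a41b were marked only because the other 3 mice of the group were at 0.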

How the results depend on the processing

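The count of called members was 0 by genotype and in the interaction under every alternative run, and between the sexes it was 2 under all but 1 alternative in each genotype. With no filter on low counts Cyp3a41b was also called between the sexes in PP mice, which gave 3 members in place of 2, and with age as a term Cyp3a59 was also called in LL mice, which also gave 3. Leaving out each library in turn gave 2 called members in both sex comparisons and 0 by genotype every time. Of all tested genes 4.27% to 7.4% were then called between the sexes and 0.183% to 2.53% by genotype. The 2 members passed the filter on low counts only through the females, so their steady count follows in part from that filter. Over 32 alternatives the DESeq2 or edgeR adjusted P between the sexes reached 0.0256 in PP and 0.0198 in LL mice for Cyp3a41a and 0.000539 and 0.00167 for Cyp3a44.

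Log2 fold changes that changed sign were all uncalled, and the cause was not tested. With transcript length as an offset Cyp3a13 was 0.015 by genotype in males and 0.034 in females, and Cyp3a25 was -0.15 in males. With fragment length as a term Cyp3a13 was 0.00043 in males and 0.076 in females by genotype, and Cyp3a11 was 0.050 between LL females and males. With age as a term Cyp3a11 was 0.37 between PP and 0.23 between LL females and males, Cyp3a41a was -0.00052 by genotype in females and Cyp3a44 was 0.046 by genotype in males. Without female PP 4 and female LL 3 Cyp3a44 was 0.37 by genotype in females, and without the mice of 9 weeks Cyp3a11 was -0.044. Leaving out 1 library gave ranges across 0 for Cyp3a11 between the sexes (-0.58 to 0.050 in PP and -0.28 to 0.044 in LL), and by genotype for Cyp3a13 (-0.24 to 0.023 in males and -0.10 to 0.032 in females), Cyp3a44 (-0.51 to 0.31 in males and -0.75 to 0.26 in females) and Cyp3a41a in females (-1.13 to 2.89).

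Mice with the same number shared no animal or litter in the labels, and their deviations correlated from -0.169 to 0.159, so the numbers were not taken as pairs. With the replicate number as a block the sex differences of Cyp3a41a were 8.82 and 12.34, and 2 members were called in each sex comparison and 0 by genotype, as without it. Depth limits what can be said of Cyp3a16, Cyp3a41b and the male values of Cyp3a41a and Cyp3a44, most of which rest on a few counts per library.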

Other observations

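Around the family 111 protein-coding genes and pseudogenes start within 500 kb of a member, of which 40 were tested. None was called by genotype or in the interaction. Of all tested genes 0.283% were called by genotype in males, 0.658% in females and 0.119% in the interaction. Between the sexes 1 was called in PP and 3 in LL mice, where 6.45% and 6.12% of all tested genes were. Pcolce, an enhancer of collagen processing, rose in female PP against male PP mice (log2 change 1.68, DESeq2 padj = 0.00248). Arpc1a and Arpc1b, actin nucleation subunits, and Mospd3 rose in female LL against male LL mice (0.46, 0.72 and 0.99, DESeq2 padj = 0.0203, 0.0193 and 0.0437). Among Cyp3a genes that are not members, Cyp3a57 had at most 1 count in a library and the pseudogene Cyp3a61-ps1 had 0 in all. The transcribed pseudogene Cyp3a63-ps, between Cyp3a41b and Cyp3a41a, had 0 to 44.4 normalized counts and was not called.

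Within Cyp3a25 the short transcript of 576 bases with no coding sequence defined held a mean of 128 (PP) and 45.3 (LL) estimated counts in males, against 2.50 (PP) and 29.1 (LL) in females, beside 1347, 1592, 1369 and 1364 for the coding transcript of 2000 bases. Estimates for single transcripts of a gene with shared sequence are uncertain, and no test was made.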
